A study of Homo sapiens with 6 samples.

Results

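NRF2, encoded by NFE2L2, is the transcription factor that cells use against oxidants and reactive chemicals, and 9 genes of its system were followed here: NFE2L2, its inhibitor KEAP1, and the target genes NQO1, HMOX1, TXNRD1, SRXN1, TXN, PRDX1 and OSGIN1. The genes were chosen by name as NRF2 with its targets outside glutathione synthesis, and all 9 were found among the 60107 Ensembl gene IDs of the count table. RNA came from H9, an established human embryonic stem cell line, driven toward nephron progenitor cells, the cells that build the filtering units of the kidney. The differentiation protocol ran for 10 days, and cells were collected at the end of day 9. The 3 control libraries came from cells in complete medium with glutamine, and the 3 others from cells deprived of glutamine from day 0 on. H9 is a single line, nothing in the labels says that replicates came from separate cultures, and p-values therefore measure only the spread between these libraries, which may be technical.

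In unstressed cells KEAP1 holds NRF2 for ubiquitination by a cullin ligase and NRF2 protein is rapidly destroyed. Oxidants and electrophiles modify cysteines of KEAP1, NRF2 then accumulates, pairs with a small MAF protein and binds antioxidant response elements in DNA, where BACH1 competes with it as a repressor. Most of this control acts on protein, so mRNA of NFE2L2 and KEAP1 does not report NRF2 activity, while mRNA of the targets lies downstream of it. Glutamine is linked to redox defence because it supplies glutamate, a building block of glutathione and the ion that is traded for cystine at the cell surface.

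Libraries held 78220507 to 84746566 counts. Replicate 1 with glutamine stood apart from its group: its mean Pearson's r of log2 CPM (counts scaled to a common library size) over genes, which are no replicates of each other, was 0.976 with the other 2 libraries with glutamine and 0.992 with the libraries without. The members are therefore described with and without it. Nephron progenitor and intermediate mesoderm markers were present, with a summed level of 1666, 1054 and 984 CPM with glutamine and 2071, 1751 and 1546 CPM without. Of 6 pluripotency markers NANOG, POU5F1 and TDGF1 were too scarce to test. The list still summed to 203, 156 and 140 CPM with glutamine and 280, 295 and 233 CPM without, most of it DPPA4. Of the 3 tested, 2, DPPA4 and ZFP42, were higher without overlap, where 17.3% of all genes were. SOX2 overlapped between groups. Against replicates 2 and 3 with glutamine alone it was lower, at a log2 difference of -0.60. In such bulk RNA, fewer cells of a type and less RNA per cell cannot be told apart.

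With edgeR's quasi-likelihood test over 22613 genes, 0 of the 8 members tested had a Benjamini-Hochberg adjusted p under 0.05, against 0.00442% of all genes tested, and 4 had an unadjusted p under 0.05, against 29.7% of all genes. At an adjusted p under 0.1 in edgeR there were 3 of 8, NQO1 and TXNRD1 higher and HMOX1 lower without glutamine, against 14.5% of all genes. When replicate 1 with glutamine was left out, edgeR called 4 of 8 members at 0.05, NFE2L2, NQO1 and TXNRD1 higher and HMOX1 lower, against 41.3% of all genes. DESeq2 on all 6 libraries called the same 4 members, against 14.0% of the genes to which it gave an adjusted p, 7.54% higher and 6.44% lower. In 4 members no library of 1 group fell within the other, 3 higher (KEAP1, NQO1 and TXNRD1) and 1 lower (HMOX1), against 34.2% of all genes. SRXN1 was the member left out by the filter on low counts. The members thus lay on both sides of 0, with NFE2L2, NQO1 and TXNRD1 above it, HMOX1 and OSGIN1 below, and TXN and PRDX1 close to it.

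**Figure D1:**
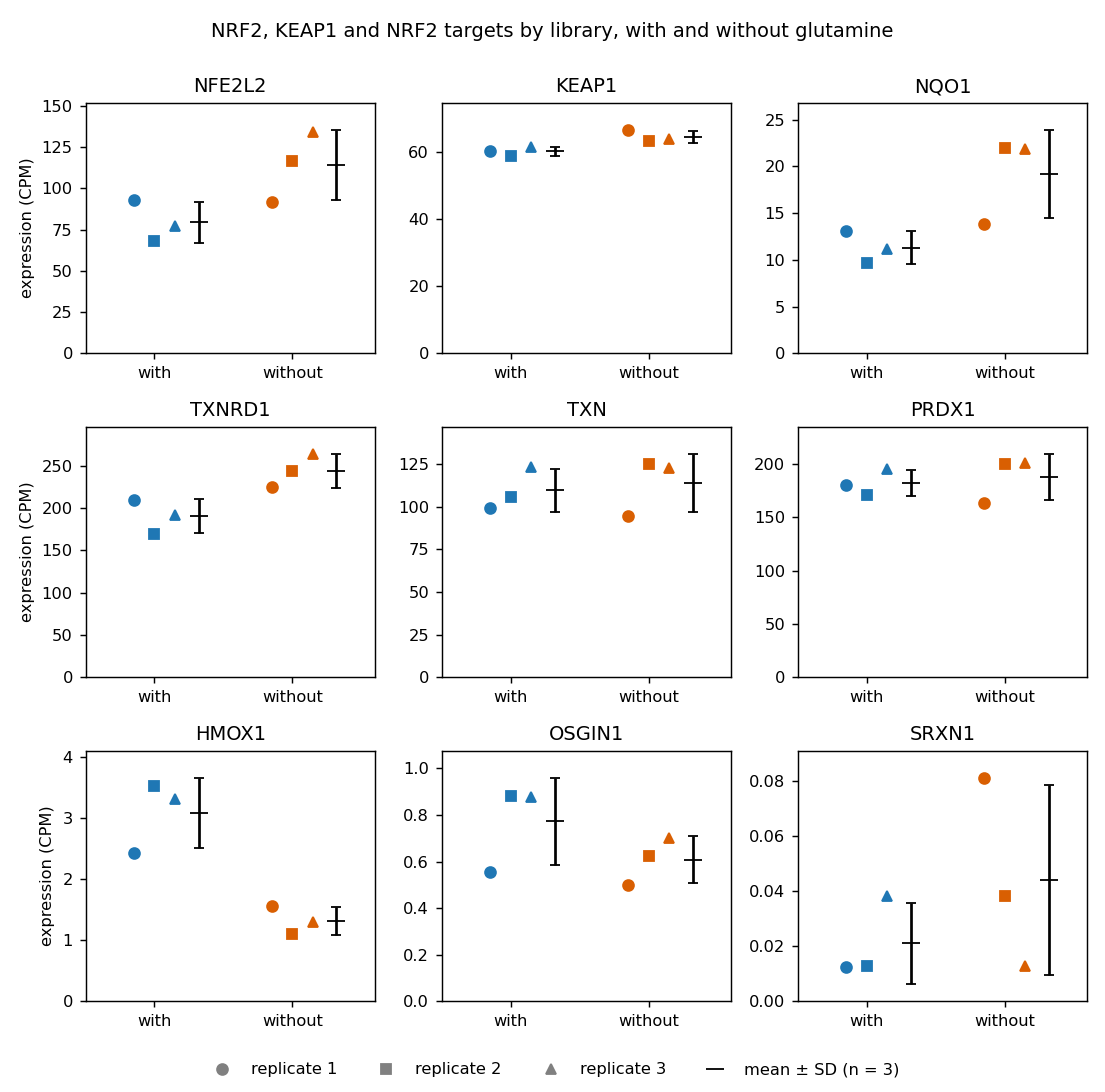
Expression of the 9 genes in CPM (vertical axes, each from 0) in the 3 libraries with and the 3 without glutamine. Symbols mark the replicate number and bars the mean ± SD (n = 3). NQO1 and TXNRD1 lie higher and HMOX1 lower in all 3 libraries without glutamine, whereas TXN and PRDX1 overlap and SRXN1 is near 0 throughout.

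NFE2L2 (ENSG00000116044, chromosome 2, 177227595 to 177392697, minus strand; all positions are GENCODE 29 on GRCh38) stood, in the order of replicates 1, 2 and 3, at 93.0, 68.3 and 77.2 CPM in glutamine and 92, 117 and 134 CPM in its absence. The groups overlapped by a single pair of libraries, since replicate 1 with glutamine was slightly above replicate 1 without. Means were 79.5 ± 12.5 and 114 ± 21.3 CPM (SD, n = 3), or 0.52 in log2 fold change (edgeR adjusted p 0.10, SE 0.16). Without replicate 1 with glutamine the groups no longer overlapped and the log2 fold change was 0.66 (edgeR adjusted p 0.00426). Of the exon bases of NFE2L2, 17.6% are shared with AC019080.1 on the same strand, a gene with 253 to 825 counts whose level was lower, not higher, in the libraries without glutamine.

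KEAP1 (ENSG00000079999, chromosome 19, 10486120 to 10503741, minus strand), the sensor that binds NRF2, was nearly constant. It was at 60.3, 58.9 and 61.6 CPM with glutamine and at 66.6, 63.2 and 63.8 CPM without. No deprived library reached down to a control library, yet the log2 fold change was only 0.10 (edgeR adjusted p 0.33, SE 0.065), and it was 0.10 without replicate 1 with glutamine too.

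NQO1 (ENSG00000181019, chromosome 16, 69706996 to 69726951, minus strand) encodes a quinone reductase and is the textbook NRF2 target. It was at 13.1, 9.67 and 11.1 CPM with glutamine and at 13.8, 22 and 21.8 CPM without. The groups did not overlap, but replicate 1 without glutamine lay just above replicate 1 with it and well below its own group. Means were 11.3 ± 1.73 and 19.2 ± 4.70 CPM (SD, n = 3), or 0.76 in log2 fold change (edgeR adjusted p 0.0818, SE 0.20). It was 0.89 without replicate 1 with glutamine (edgeR adjusted p 0.00445).

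TXNRD1 (ENSG00000198431, chromosome 12, 104215779 to 104350305, plus strand) encodes the cytosolic thioredoxin reductase, a selenoprotein that passes electrons from NADPH to thioredoxin. It was at 210, 169 and 192 CPM with glutamine and at 224, 243 and 264 CPM without. Again no library without glutamine fell within the range of those with it. Means were 190 ± 20.4 and 244 ± 19.9 CPM (SD, n = 3), a ratio of 1.28 and a log2 fold change of 0.36 (edgeR adjusted p 0.0868, SE 0.10), or 0.44 without replicate 1 with glutamine (edgeR adjusted p 0.00334).

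TXN and PRDX1, which use the electrons that TXNRD1 supplies, did not follow it. TXN (ENSG00000136810, chromosome 9, 110243811 to 110256640, minus strand), thioredoxin itself, was at 99.3, 106 and 124 CPM with glutamine and at 94.3, 125 and 123 CPM without. The log2 difference was 0.06 (edgeR adjusted p 0.791, SE 0.13). PRDX1 (ENSG00000117450, chromosome 1, 45511036 to 45523047, minus strand), a peroxiredoxin that removes hydrogen peroxide, was at 181, 171 and 195 CPM with and 163, 200 and 201 CPM without. The log2 difference was 0.05 (edgeR adjusted p 0.779, SE 0.10). In both genes the libraries of the 2 groups were interleaved, with replicate 1 without glutamine the lowest of all 6, and the sign of the small difference depended on which library was left out. Both have annotated pseudogenes. The 7 of TXN held at most 75 counts in a library and the 1 of PRDX1 at most 16, against at least 8060 and 13337 counts in the genes themselves. PRDX1 also shares 24.9% of its exon bases with MMACHC on the opposite strand, and the strand setting of the counting is not given in the sources used here.

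HMOX1 (ENSG00000100292, chromosome 22, 35380361 to 35394214, plus strand) encodes heme oxygenase, which opens the heme ring to biliverdin, iron and carbon monoxide, and it is controlled by BACH1 as well as by NRF2. Its difference had the opposite sign to those of NQO1 and TXNRD1. It was at 2.43, 3.52 and 3.31 CPM with glutamine (197, 275 and 260 counts) and at 1.56, 1.10 and 1.30 CPM without (134, 86 and 102 counts). All 3 libraries without glutamine were below all 3 with it. Means were 3.09 ± 0.580 and 1.32 ± 0.231 CPM (SD, n = 3), or -1.22 in log2 fold change (edgeR adjusted p 0.0679, SE 0.21). Without replicate 1 with glutamine it was -1.36 (edgeR adjusted p 0.000168), and DESeq2 on all libraries gave an adjusted p of 3.41e-05.

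Markers of endothelial and blood cells were lower in the same libraries. Of 8 such genes 5 were tested, and 3 were lower and 1 higher without overlap between groups. Their summed level was 26.9, 88.7 and 74.5 CPM with glutamine and 14.9, 14.7 and 19.7 CPM without, most of it from KDR, a receptor that mesoderm also makes. The defining endothelial markers were scarce, at 0.592 to 1.14 CPM with and 0.230 to 0.331 CPM without for PECAM1, and at 1.22 to 1.77 and 0.384 to 0.624 CPM for CDH5. The leukocyte marker PTPRC was at 0.0116 to 0.0896 CPM and the embryonic globin HBZ at 0 to 0.0128 CPM over the 6 libraries. Other marker lists held lower genes too. Of 8 presomitic and paraxial mesoderm markers, 2 were lower and 0 higher without overlap, with a median log2 fold change of -1.11. Of 5 neural markers tested, 2 were lower and 1 higher, and of 4 endoderm markers 2 were lower and 2 higher. Over all genes 16.9% were lower and 17.3% higher without overlap. The part of any of these cell types in the level of HMOX1 was not tested.

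OSGIN1 (ENSG00000140961, chromosome 16, 83948282 to 83966332, plus strand), an oxidative stress-induced growth inhibitor, was scarce. It was at 0.555, 0.883 and 0.878 CPM with glutamine (45, 69 and 69 counts) and at 0.50, 0.625 and 0.700 CPM without (43, 49 and 55 counts). The groups overlapped through replicate 1 with glutamine, and the log2 fold change was -0.35 (edgeR adjusted p 0.391, SE 0.26). Without that library it was -0.54, with no overlap and an edgeR adjusted p of 0.0792. OSGIN1 shares 13.9% of its exon bases with AC009119.2 on the same strand, which had 22 to 45 counts.

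SRXN1 (ENSG00000271303, chromosome 20, 646615 to 653370, minus strand) encodes sulfiredoxin, which restores over-oxidised peroxiredoxins. It had 1, 1 and 3 counts with glutamine and 7, 3 and 1 without, and no fold is given at such depth. In the annotation 85.0% of its exon bases also belong to AL121758.1 on the same strand, a gene that had only 2 to 8 counts. How reads in exons shared by 2 genes were treated is not given in the sources used here, so these counts are no measure of SRXN1 mRNA.

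**Figure D2:**
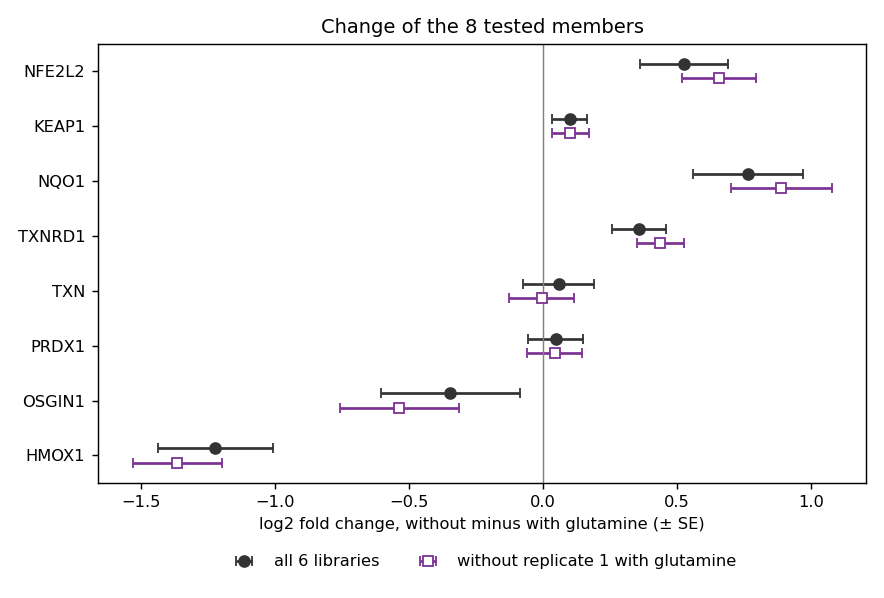
Log2 fold change, without minus with glutamine, ± SE (horizontal axis) of the 8 tested genes in edgeR with all 6 libraries (filled circles) and without replicate 1 with glutamine (open squares). NFE2L2, NQO1 and TXNRD1 lie above 0 and HMOX1 below it in both, while TXN, PRDX1 and KEAP1 stay near 0.

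Replicate 1 with glutamine was intermediate for the 4 genes that edgeR called without it. On the log2 scale, with the mean of replicates 2 and 3 with glutamine at 0 and the mean without glutamine at 1, it lay at 0.56 for NFE2L2, 0.39 for NQO1, 0.51 for TXNRD1 and 0.36 for HMOX1. For OSGIN1, which was not called, it lay at 1.22, beyond the mean without glutamine. The 4 called genes were picked through this library, so their positions do not describe the members as a whole. Replicate 1 without glutamine was the lowest of its group for NFE2L2, NQO1, TXNRD1, TXN, PRDX1 and OSGIN1, and the highest for HMOX1 and KEAP1. Across the alternatives of scaling, filter, test and left-out library, the log2 fold change stayed between 0.39 and 0.66 for NFE2L2, 0.66 and 0.96 for NQO1, 0.27 and 0.44 for TXNRD1, and -1.36 and -1.10 for HMOX1.

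Levels were set against each other only per kilobase of annotated exon, since counts grow with length. With glutamine, PRDX1 was at 120 ± 8.08 CPM per kilobase, TXN at 95.9 ± 11, TXNRD1 at 28.4 ± 3.04, KEAP1 at 16.0 ± 0.354, NFE2L2 at 13.3 ± 2.10, NQO1 at 3.47 ± 0.532, HMOX1 at 1.28 ± 0.241 and OSGIN1 at 0.223 ± 0.0544 (SD, n = 3). No neighbours in that order overlapped between libraries, although KEAP1 and NFE2L2 nearly did. Without glutamine the order was PRDX1 at 124 ± 14.2 and TXN at 99.8 ± 14.9, then TXNRD1 at 36.4 ± 2.96, NFE2L2 at 19.1 ± 3.55, KEAP1 at 17.2 ± 0.489, NQO1 at 5.90 ± 1.44, HMOX1 at 0.548 ± 0.0959 and OSGIN1 at 0.176 ± 0.0293 CPM per kilobase. There PRDX1 overlapped TXN and NFE2L2 overlapped KEAP1, so those neighbours did not differ beyond their spread. Per kilobase, PRDX1 and TXN mRNA thus stood far above NQO1 and HMOX1 mRNA in both media.

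Promoter windows from RefSeq on GRCh38.p14, 250 bases before to 50 after a transcript start, were read for 2 motifs on both strands: TGACNNNGC, the core of the antioxidant response element that NRF2 and small MAF proteins bind, and TGANTCA, the AP-1 motif, whose letters can overlap that core. RefSeq windows matched 7 of the 9 members, and HMOX1 and PRDX1 had none. The core was present in 3 of 10 member windows, from TXNRD1 and KEAP1, and in 13.3% of all 35116 windows. The AP-1 motif was present in 1 member window, that of OSGIN1, and in 7.71% of all windows. The matches are shown with 10 bases on each side, 5′ to 3′ on the strand of the gene, with the motif in capitals (capitals that begin with GC are the core read on the opposite strand), because they are the only places in these windows where the letters of the NRF2 or AP-1 site occur.
TXNRD1, upstream start, chr12:104215670-104215698, plus strand, 99 bases before the start: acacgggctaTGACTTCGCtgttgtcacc
TXNRD1, upstream start, chr12:104215761-104215789, plus strand, 8 bases before the start: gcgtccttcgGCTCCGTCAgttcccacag
TXNRD1, downstream start, chr12:104286920-104286948, plus strand, 102 bases before the start: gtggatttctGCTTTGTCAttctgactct
KEAP1, downstream start, chr19:10502807-10502835, minus strand, 54 bases before the start: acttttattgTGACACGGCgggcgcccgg
KEAP1, downstream start, chr19:10502784-10502812, minus strand, 31 bases before the start: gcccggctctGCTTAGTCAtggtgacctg
OSGIN1, chr16:83953133-83953159, plus strand, 97 bases before the start: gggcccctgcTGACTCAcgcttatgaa
TXNRD1, with a log2 fold change of 0.36, therefore had the core at both starts that had a window here, and KEAP1, at 0.10, had it at its downstream start. All 29 bases shown for the downstream TXNRD1 match, and for each KEAP1 match, lie in annotated exon of the same gene. NQO1, at 0.76, had neither motif in its window. A match of letters is a description and not a bound site, and the absence of one covers only these windows. The 250 bases before the upstream start of TXNRD1, which hold no annotated exon, read as follows, with the first core in capitals; the last letter of the second core lies past the end of this stretch.
TXNRD1, chr12:104215529-104215778, plus strand: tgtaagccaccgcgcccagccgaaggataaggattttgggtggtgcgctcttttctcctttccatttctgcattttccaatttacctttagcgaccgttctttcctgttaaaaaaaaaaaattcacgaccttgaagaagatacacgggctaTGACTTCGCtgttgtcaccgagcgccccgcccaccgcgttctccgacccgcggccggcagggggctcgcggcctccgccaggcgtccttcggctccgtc

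The wider system was read from 7 lists with 95 other genes, of which 92 were tested. In these lists 29 genes had all deprived libraries above all controls and 15 had them all below, where 17.3% and 16.9% of all genes were. At an edgeR adjusted p under 0.1 there were 13 higher and 6 lower, where 7.30% and 7.23% of all genes were, and 1, SLC7A11, passed 0.05. The median log2 fold change of the lists together was 0.10, beside 0.0012 over all genes tested. With replicate 1 with glutamine left out, edgeR called 28 higher and 16 lower, where 22.3% and 19.0% of all genes were.

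**Figure D3:**
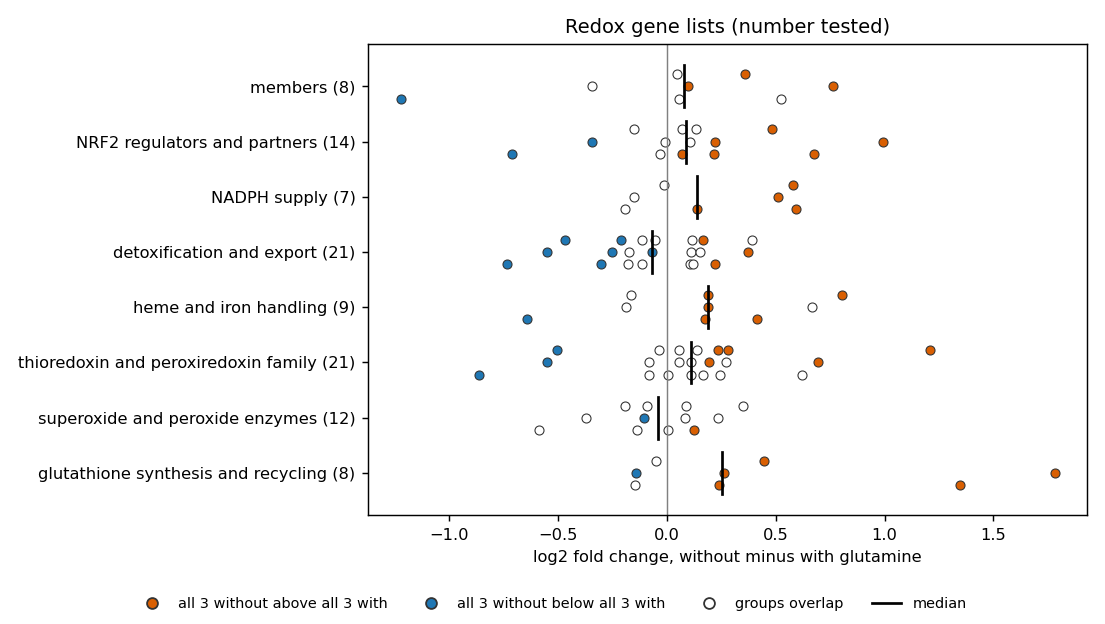
Log2 fold change, without minus with glutamine (horizontal axis), of each tested gene in 8 lists (vertical axis, number tested in parentheses). Filled points mark genes whose groups do not overlap and vertical bars the list medians. Every list spreads to both sides of 0, and its median lies between -0.07 and 0.25.

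Among 14 regulators and partners of NRF2, 6 were higher and 2 lower without overlap, where 17.3% and 16.9% of all genes were. The median log2 fold change was 0.09. MAFK, a small MAF protein with which NRF2 pairs, was at 4.08, 2.20 and 1.99 CPM with glutamine and at 6.01, 5.96 and 4.51 CPM without. All libraries without glutamine were higher, with a log2 fold change of 0.99 (edgeR adjusted p 0.0879, SE 0.28). MAFG, of the same family, was at a log2 fold change of -0.01 with overlapping groups. NFE2L3, a relative of NRF2, was at 18.8 ± 2.45 CPM with and 30.1 ± 2.31 CPM without (SD, n = 3), or 0.68 in log2 fold change (edgeR adjusted p 0.0679). SQSTM1, the autophagy receptor that draws KEAP1 away from NRF2, was at 26.9 ± 1.03 and 31.3 ± 1.37 CPM (SD, n = 3), a log2 fold change of 0.22 (edgeR adjusted p 0.120). BACH1, the repressor of HMOX1, was at 110, 150 and 147 CPM with glutamine and at 108, 103 and 109 CPM without. It was lower without overlap, at a log2 fold change of -0.34 (edgeR adjusted p 0.125), and replicate 1 with glutamine lay next to the libraries without. TRIM16, a ubiquitin ligase that stabilises NRF2, was at 14.6, 20.1 and 20.6 CPM with and 11.2, 11.1 and 11.6 CPM without, a log2 fold change of -0.71 (edgeR adjusted p 0.0689). With replicate 1 with glutamine left out, edgeR called 6 of the 14 higher and 3 lower, where 22.3% and 19.0% of all genes were. Among them were MAFK (1.40), NFE2L3 (0.79), SQSTM1 (0.24), BACH1 (-0.47) and TRIM16 (-0.85).

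Heme and iron genes split around HMOX1. Of 9 genes, 5 were higher and 1 lower without overlap, where 17.3% and 16.9% of all genes were. The median log2 fold change was 0.19. BLVRB, biliverdin reductase B, was at 4.84, 5.53 and 6.99 CPM with glutamine and at 3.96, 3.75 and 3.40 CPM without. Its log2 fold change was -0.64 (edgeR adjusted p 0.0798). HMOX2, the constitutive heme oxygenase, was on the other side, at 19.6, 13.4 and 15.4 CPM with and 19.9, 22.5 and 22.2 CPM without. Its log2 fold change was 0.41 (edgeR adjusted p 0.125). The heme transporter gene SLC48A1 was at 17.0, 8.4 and 8.39 CPM with and 19.2, 22 and 17.9 CPM without, a log2 fold change of 0.80 (edgeR adjusted p 0.119). For HMOX2 and SLC48A1 replicate 1 with glutamine lay just below the libraries without. With it left out, edgeR called 4 of the 9 higher and 1 lower, where 22.3% and 19.0% of all genes were. Among them were HMOX2 (0.58), SLC48A1 (1.23) and BLVRB (-0.75). The ferritin light chain FTL, an NRF2 target, had a log2 fold change of -0.16 (edgeR adjusted p 0.258). The heavy chain FTH1 was at 22.4, 29.6 and 26.9 CPM with and 67.0, 32.7 and 25.6 CPM without, with replicate 1 without glutamine alone far above the rest. Both ferritin genes have many pseudogene copies, and their counts are uncertain.

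**Figure D4:**
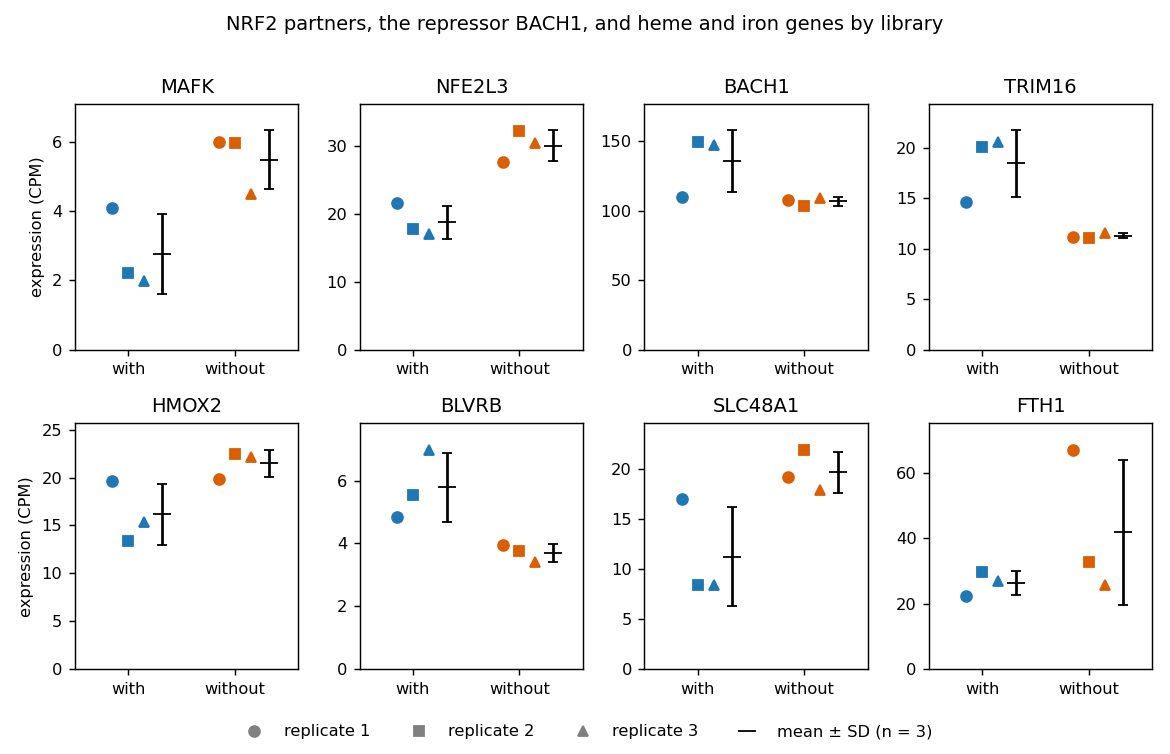
Expression in CPM (vertical axes, each from 0) of 4 NRF2 partners and regulators and 4 heme and iron genes in the 3 libraries with and the 3 without glutamine. Symbols mark the replicate number and bars the mean ± SD (n = 3). In BACH1, HMOX2 and SLC48A1 replicate 1 with glutamine lies by the libraries without, and in FTH1 replicate 1 without glutamine stands alone at 67.0 CPM.

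Enzymes that supply NADPH, which TXNRD1 and NQO1 consume, were read from a list of 7 genes. Of these, 4 were higher and 0 lower without overlap, where 17.3% and 16.9% of all genes were. The median log2 fold change was 0.14. IDH1, the cytosolic isocitrate dehydrogenase, was at 172, 122 and 133 CPM with glutamine and at 191, 219 and 229 CPM without, a log2 fold change of 0.58 (edgeR adjusted p 0.0737). The malic enzyme ME1 was at 2.18, 2.14 and 2.34 CPM with and 2.59, 3.55 and 3.92 CPM without, a log2 fold change of 0.59 (edgeR adjusted p 0.101). In both genes no library crossed into the other group. With replicate 1 with glutamine left out, edgeR called 3 of the 7 higher and 1 lower, where 22.3% and 19.0% of all genes were.

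Detoxifying enzymes and exporters, 21 of 24 tested, had 3 genes higher and 7 lower without overlap, where 17.3% and 16.9% of all genes were. Their median log2 fold change was -0.07. The aldo-keto reductases AKR1C1 and AKR1C2, strong NRF2 targets in other human cells, were lower. AKR1C1 was at 2.93, 4.05 and 3.55 CPM with glutamine and at 2.69, 2.22 and 2.28 CPM without, and AKR1C2 at 3.12, 3.88 and 3.97 CPM with and 2.21, 2.09 and 2.29 CPM without. Their log2 fold changes were -0.55 and -0.73 (edgeR adjusted p 0.10 and 0.0689), and since the genes are near-identical in sequence the counting can split reads between them. On the other side were ALDH3A2, an aldehyde dehydrogenase (0.37, edgeR adjusted p 0.0718), and UGDH, which makes the sugar donor for glucuronidation (0.22, edgeR adjusted p 0.0948).

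Beyond TXN and PRDX1, the thioredoxin family of 21 genes had 5 higher and 3 lower without overlap. Over all genes 17.3% were higher and 16.9% lower, and the median log2 fold change of the family was 0.11. The peroxiredoxins PRDX2, PRDX3, PRDX4, PRDX5 and PRDX6 all overlapped between groups, at log2 fold changes of 0.00, -0.03, 0.06, 0.16 and 0.11. TXNIP, which binds and inhibits thioredoxin, was at 450, 67.6 and 81.7 CPM with glutamine and at 318, 296 and 309 CPM without. Replicate 1 with glutamine thus exceeded every library without, and the log2 fold change of 0.62 became 2.05 when it was left out (edgeR adjusted p 3.74e-07). The methionine sulfoxide reductases, which use thioredoxin to repair oxidised methionine, went both ways. MSRB1 was at 53.7, 12.9 and 13.5 CPM with and 60.8, 64.1 and 60.4 CPM without, a log2 fold change of 1.21 (edgeR adjusted p 0.178), or 2.23 without replicate 1 with glutamine. MSRB3 was higher by 0.69 (edgeR adjusted p 0.0706), and MSRB2 had a log2 fold change of -0.86 (edgeR adjusted p 0.0810). The sestrin SESN3 was at 396, 534 and 513 CPM with and 335, 300 and 352 CPM without, a log2 fold change of -0.55 (edgeR adjusted p 0.0721). When replicate 1 with glutamine was left out, edgeR called 5 of the 21 higher and 3 lower. Over all genes it called 22.3% higher and 19.0% lower. Among the called genes of the family were MSRB3 (0.58), MSRB2 (-1.10) and SESN3 (-0.67).

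Of 12 superoxide and peroxide enzymes, 1 was higher and 1 lower without overlap, where 17.3% and 16.9% of all genes were. The median log2 fold change was -0.04. SOD2, the mitochondrial superoxide dismutase, was the higher gene (0.13, edgeR adjusted p 0.217), and AIFM2, which keeps ubiquinone reduced, the lower (-0.10, edgeR adjusted p 0.536). With replicate 1 with glutamine left out, edgeR called 1 higher, the peroxidase GPX3 (0.69, adjusted p 0.00125), and 2 lower, the extracellular dismutase SOD3 (-0.88, adjusted p 0.0123) and GPX7 (-0.29, adjusted p 0.0123). Over all genes that fit called 22.3% higher and 19.0% lower. In glutathione synthesis and recycling 5 of 8 genes were higher and 1, GGT7 at -0.14, lower without overlap, with a median of 0.25. Over all genes 17.3% were higher and 16.9% lower without overlap. SLC7A11, the cystine importer, rose from 19.2 ± 1.5 to 49.0 ± 4.11 CPM (SD, n = 3), a log2 fold change of 1.35 (edgeR adjusted p 0.0488). The fold change stayed between 1.29 and 1.41 in 17 alternatives, but the call was lost in 9, with adjusted p from 0.0504 to 0.259, among them the replicate block (0.129) and leaving out replicate 2 or 3 of either group. It is a target of NRF2 and also of the amino acid stress factor ATF4. CHAC1, which degrades glutathione, was at 1.78 (edgeR adjusted p 0.0679). GCLM and GCLC, the subunits of the enzyme that starts glutathione synthesis and NRF2 targets both, were at 0.26 (edgeR adjusted p 0.128) and -0.14 (edgeR adjusted p 0.519), and glutathione reductase GSR was at 0.24 (edgeR adjusted p 0.0932).

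Genes whose profile over the 6 libraries was most like that of a member were sought among 11922 genes for the 3 members with the widest range, by the root mean square distance of centred log2 CPM. For HMOX1 they were SOX6, LGI4 and ATP1B2, at distances of 0.092, 0.11 and 0.12. For NQO1 they were CALD1, RCAN1 and SPARC, at 0.095, 0.10 and 0.11, and for NFE2L2 SLC5A7, PHLDB2 and LRRC32, at 0.057, 0.058 and 0.058. CALD1, an actin-binding protein, was at 237, 192 and 203 CPM with glutamine and at 295, 413 and 459 CPM without, with the same low replicate 1 without glutamine as NQO1. SOX6, a transcription factor, was at 27.4, 45.1 and 43.6 CPM with and 17.5, 13 and 15.2 CPM without. The likeness is a description over 6 libraries in which most genes follow a few shared patterns, and 0 of these 9 genes was on a list of the NRF2 system.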

How the data were processed

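The mRNA was sequenced from strand-marked libraries as single reads of 50 nt, per the labels. The submitters' processing notes name Trim Galore, cutadapt, FastQC, STAR 2.5.2b, DESeq2 and GRCh38, with no role or order. The counting program, annotation release and strand setting are not given in the sources used here. The authors deposited raw counts per Ensembl gene and normalized counts, treated as a signal. The deposited signal is the raw count divided by the median-of-ratios size factor of each library, from 0.977 to 1.08. The columns are headed day 0 and day 9 but all samples are from day 9. Each sample's description states its heading, day 0 for libraries with glutamine and day 9 for those without.

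Symbols and exon lengths came from GENCODE 29, which matched 56531 of 60107 IDs. The test was that of edgeR 4.0.16 on the raw counts (under R 4.3.3; quasi-likelihood, legacy = FALSE, robust = FALSE, filterByExpr, TMM, Benjamini-Hochberg over 22613 genes). Standard errors were recovered from F as the size of the log2 fold change over root F. CPM uses TMM-scaled library sizes, and log2 CPM a prior count of 2. DESeq2 1.42.0, limma 3.58.1, other scalings, filters, left-out libraries and a replicate block were alternatives. Members and lists were chosen with earlier results of these data known. All members are named. Each list contributes its 2 largest changes in each direction among genes whose groups did not overlap and whose higher group averaged 50 counts or more, and 12 genes were fixed besides, of which 1 is not reported here. MAFK and the other listed genes follow that rule, while KDR, PECAM1, CDH5, PTPRC, HBZ, NANOG, POU5F1, TDGF1, DPPA4, ZFP42, SOX2, GPX3, SOD3, GPX7, the peroxiredoxins, and the GSTM genes named under other observations, were chosen with their values already known.

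On simulated counts with 200 changed genes, the test of all 6 libraries recovered 11.8% of log2 changes of 0.5, 75.8% of 1 and 97% of 2 over 22213 genes, with 7 false calls. Without replicate 1 with glutamine it recovered 72.1% of log2 changes of 0.5 over 22698 genes, with 24 false calls. The changed genes were drawn only from those above the median level, and noise was drawn independently for each gene and library. No simulated library was shifted over many genes at once, as replicate 1 with glutamine was. These rates therefore do not carry over to the real libraries.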

Additional observations from a re-analysis of the deposited data

How the results depend on the processing

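The 1 gene called among all genes became 0 under upper quartile scaling, library size only, edgeR's legacy setting, limma-voom and the replicate block, 2 under limma-trend on normalized counts and without any filter, and 3041 under DESeq2. Leaving out 1 library gave 0 to 9573, the highest without replicate 1 with glutamine, and 17 without replicate 1 without glutamine. The 0 members called became 4 under DESeq2, and 0 to 4 with 1 library left out. The 4 came without replicate 1 with glutamine, and the causes were not tested. The 3 members at an edgeR adjusted p under 0.1 became 0 with the replicate block, and 0 to 5 with 1 library left out, 5 without replicate 1 with glutamine. Same-numbered libraries did not deviate together (correlations of -0.021, 0.0000877 and 0.028), so the numbers were not taken as pairs. Of 136 alternative values for the 8 tested members, 123 kept their sign and their call, 8 gained a call and 5 changed sign. The sign changes were in TXN, to between -0.008 and -0.002, and in PRDX1, to -0.006 and -0.008, each with 1 library left out, where the full ranges were -0.008 to 0.181 and -0.008 to 0.143. Of 527 values for 31 other genes picked by the naming rule, 478 kept both, 36 gained a call, 9, all of SLC7A11, were no longer called, and 4 changed sign, all of MAFG, to 0 under limma-trend and to between 0.006 and 0.033 with 1 library left out, where its full range was -0.066 to 0.033. The all-gene median moved by less than 0.1 (log2) under each scaling. HMOX1 and OSGIN1 rest on 43 to 275 counts, and SRXN1 could not be measured.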

Other observations

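The mu class glutathione transferases, which couple glutathione to electrophiles, were lower without glutamine in all 4 listed genes with no overlap between groups, a pattern picked out after the values were seen. Of all genes tested, 16.9% were lower with no overlap. GSTM2 was at 33.6, 29.9 and 25.8 CPM with glutamine and at 20.5, 21.9 and 22.3 CPM without, or -0.47 in log2 fold change (edgeR adjusted p 0.0724, SE 0.11). GSTM1, GSTM3 and GSTM4 were at -0.30, -0.25 and -0.21 (edgeR adjusted p 0.15, 0.161 and 0.189). Without replicate 1 with glutamine edgeR called GSTM1, GSTM2 and GSTM3, at -0.37, -0.37 and -0.32, where 19.0% of all genes were called lower. The genes lie in a cluster of close relatives and reads can be split between them, so the 4 values are not independent.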
